A study of Homo sapiens with 12 samples.

Results

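AP-1 is the name of a family of transcription factors that bind DNA as dimers of basic leucine zipper proteins. The mRNA of 10 such genes was examined: the FOS genes FOS, FOSB, FOSL1 and FOSL2, the JUN genes JUN, JUNB and JUND, and the relatives BATF3, MAFF and MAFK. They were chosen by symbol, with earlier results of these data known, and all 10 were present among the 20114 genes of the deposited RNA tables and among the 12792 genes tested. The study compared the human kidney cancer cell line Caki-1 with a derivative resistant to cabozantinib, a drug that blocks the kinases MET and AXL and VEGF receptors. RNA was measured in 2 libraries of each line, beside 4 H3K27ac and 4 input DNA libraries that were not analysed here. The resistant cells were selected from Caki-1 by growth in McCoy's 5A medium with cabozantinib raised from 5 to 20 µM over 2 months, and were then kept in 10 µM of the drug. The wild-type cells, called parental here, were kept in RPMI 1640. Drug, medium and selection therefore differ together between the lines and cannot be told apart. The labels name no clone and no separate cultures, so that p-values measure only the spread between these libraries, which may be technical.

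FOS proteins cannot pair with themselves and bind DNA as dimers with a JUN protein, whereas JUN proteins also pair with each other. The dimers recognise TGACTCA and the related TGACGTCA. FOS, FOSB, JUN and JUNB are immediate early genes, induced by growth factor signalling through ERK and JNK kinases, and FOSL1 is a later and more lasting target of ERK signalling in epithelial tumour cells. MAFF and MAFK are small MAF proteins, which lack an activation domain of their own and act with partners such as NFE2L2 (NRF2) and BACH1, and BATF3 pairs with JUN proteins.

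Promoter sequences from RefSeq (GRCh38.p14, 250 bases before to 50 bases after a gene's start) matched 7 of the 10 genes, all but FOSL1, BATF3 and MAFK, with 8 windows in all. Both strands were searched for TGACTCA, TGACGTCA, TGACATCA and the CArG box, the binding site of serum response factor. None of the matches found overlaps another. The windows that held a match to one of the first 3 are printed because they show, in the genes' own promoters, the letters that AP-1 dimers and their relatives recognise. Capitals mark the match. JUN (chr1:58784048-58784297, minus strand) held TGACATCA, starting 67 bases before the start. FOSL2 (chr2:28392608-28392877, plus strand, printed with the first 20 bases from the start) held TGACTCA from base 5 of the transcript. JUND (chr19:18281623-18281872, minus strand) held TGACGTCA from 200 bases before the start. MAFF (chr22:38201744-38201993, plus strand, the first of 2 starts) held TGACGTCA from 54 bases before the start.
JUN: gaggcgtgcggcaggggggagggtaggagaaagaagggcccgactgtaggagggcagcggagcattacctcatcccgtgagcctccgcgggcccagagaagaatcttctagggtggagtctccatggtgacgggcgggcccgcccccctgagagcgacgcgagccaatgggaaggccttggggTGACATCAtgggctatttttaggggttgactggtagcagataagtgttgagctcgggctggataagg
FOSL2: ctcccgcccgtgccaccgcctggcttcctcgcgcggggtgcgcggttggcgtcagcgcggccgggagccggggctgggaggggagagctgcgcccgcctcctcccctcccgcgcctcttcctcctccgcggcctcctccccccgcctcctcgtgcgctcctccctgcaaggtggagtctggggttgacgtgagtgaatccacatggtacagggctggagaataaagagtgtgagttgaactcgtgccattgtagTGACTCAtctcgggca
JUND: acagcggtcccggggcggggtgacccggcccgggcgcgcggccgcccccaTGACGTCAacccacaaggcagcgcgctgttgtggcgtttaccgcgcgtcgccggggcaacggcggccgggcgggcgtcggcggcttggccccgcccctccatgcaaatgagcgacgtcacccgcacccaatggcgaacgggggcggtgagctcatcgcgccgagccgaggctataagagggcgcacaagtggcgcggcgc
MAFF: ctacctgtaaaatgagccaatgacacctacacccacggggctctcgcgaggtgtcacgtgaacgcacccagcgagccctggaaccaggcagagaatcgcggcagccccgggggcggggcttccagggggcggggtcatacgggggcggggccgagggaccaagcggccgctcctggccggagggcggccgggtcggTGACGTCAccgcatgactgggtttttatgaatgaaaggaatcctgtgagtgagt
Of all 35116 promoter windows of the same length, 4.95% held TGACTCA, 1.85% held TGACGTCA, 2.61% held TGACATCA and 1.29% held a CArG box. No CArG box was found in the 8 windows, and sites more than 250 bases before a start were not searched. These matches describe letters in a window, and no binding was measured.

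The RNA libraries held from 10584083 to 14664723 estimated counts. The 2 parental libraries were close to each other, and the 2 resistant libraries were further apart: the median absolute log2 difference within a pair was 0.10 and 0.34 over all tested genes, and 0.10 and 0.32 over the 10 AP-1 genes. Renal epithelial markers PAX8, KRT8 and KRT18 were abundant in every library (133 TPM or more), while PAX2 had 0 counts in all 4. Of the other 3 markers on that list of 7, CDH6 (1.31 to 1.99 TPM) and CA9 (0 to 0.90 TPM) were low. LHX1, a transcription factor of kidney development, rose from 0.23 and 0.16 TPM to 2.62 and 4.65 (log2 fold change 4.32 ± 0.55, edgeR's adjusted p = 0.0148). Of 13 listed blood, endothelial and stromal cell markers, 12 were in the tables. Of these, COL1A1, PDGFRB and ACTA2 passed the filter on low counts (ACTA2 at 37.8 to 44.0 TPM, the others at 6.35 TPM or less), and CD3E, CDH5 and HBB had 0 counts in every library.

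Levels are given first as the authors' TPM, a transcript abundance scaled by transcript length and library total, which can be compared between genes. JUND, the JUN protein least dependent on stimulation, was the most abundant AP-1 mRNA in every library, with 331 and 328 TPM in the parental libraries, against 221 and 299 in the resistant ones. FOSL1, JUNB, FOSL2 and JUN stood between 36.9 and 157 TPM, and MAFF and MAFK between 21.3 and 65.9 TPM. By mean TPM MAFK took place 7 of 10 in the parental line. It took place 5 in the resistant line, with FOSL2 at place 6. BATF3, FOS and FOSB were low: BATF3 stood between 4.40 and 5.49 TPM, FOS between 0.86 and 2.63, and FOSB between 0.45 and 1.37. FOS and FOSB rested on 13 to 27 estimated counts a library, which limits the precision of their values. The summed level of the 10 mRNAs was 771 and 745 TPM in the parental line, against 734 and 750 in the resistant line. One resistant library lay between the parental sums and the other below them, so the summed level differed little. MAFK took 3.95% and 3.57% of it in the parental libraries, against 8.98% and 7.59% in the resistant ones. JUND took 43.0% and 44.0% against 30.1% and 39.9%, so its resistant libraries were far apart. The shares of JUN in the resistant line (10.7% and 7.13%) lay on both sides of the parental ones (9.28% and 9.40%). No test was run on these shares.

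**Figure D1:**
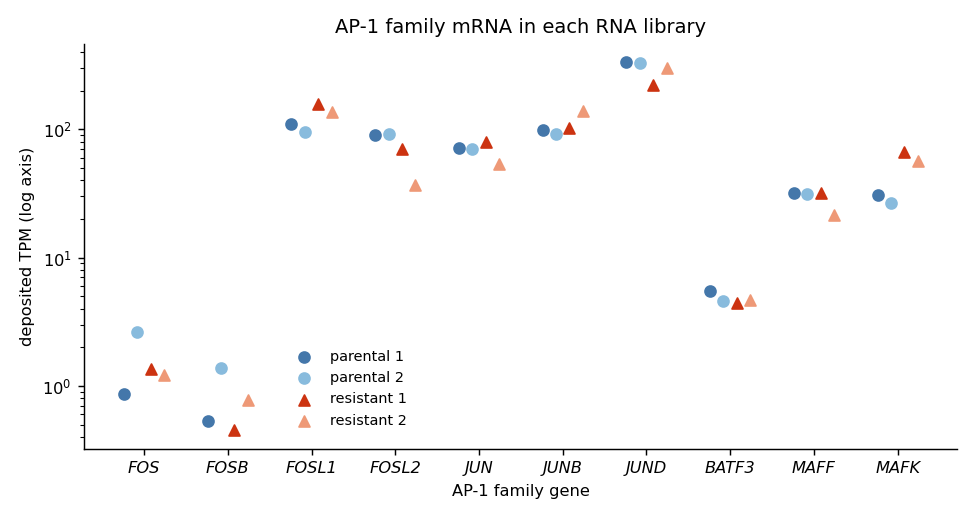
Deposited TPM on a log axis for the 10 AP-1 genes, with 1 point for each RNA library (circles parental, triangles resistant). JUND is the highest in every library, FOS and FOSB the lowest, and for MAFK both resistant libraries (65.9 and 57.0 TPM) lie above both parental ones (30.5 and 26.6).

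Across the family, the quasi-likelihood test of edgeR, adjusted over all 12792 tested genes, called 1 member higher in the resistant line, MAFK, and 0 members lower at an adjusted p of 0.05. Over all tested genes, 2.96% were called higher and 3.41% lower (379 and 436 genes, or 531 and 373 with library totals in place of TMM). At an unadjusted p under 0.05 stood 3 members, MAFK, FOSL1 and FOSL2, against 27% of all tested genes. DESeq2 called 1 member higher (MAFK) and 1 lower (FOSL2), against 576 higher and 715 lower of all 16057 genes it tested. Both resistant libraries lay above both parental ones in normalised read count for 2 members (MAFK and FOSL1) and below them for 4 (FOSB, FOSL2, JUND and MAFF). Over all tested genes the groups were apart in these ways for 30.9% and 29.7%. The median log2 fold change of the members was -0.15, against 0.02 over all tested genes. The counts for the family as a whole were thus near those of all genes.

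MAFK rose in the resistant line. Its level was 30.5 and 26.6 TPM in the parental libraries, against 65.9 and 57.0 in the resistant ones. For MAFK, as for 30.9% of all tested genes in normalised read count, both resistant libraries lay above both parental ones. In read counts scaled to library size by TMM (CPM) it stood at 67.9 ± 3.51 (SD, n = 2) and 154 ± 8.02. The log2 fold change was 1.18 ± 0.14 (SE) and edgeR's adjusted p was 0.0129. The call ended when parental replicate 1 or 2 was left out, where the spread comes from the resistant pair alone. It also ended in limma-trend on TPM with no filter (adjusted p = 0.069). The log2 fold change stayed between 1.08 and 1.26 over the 15 alternatives run.

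The tested genes beside MAFK on chromosome 7 were higher as well. This was looked at after the values of MAFK had been seen. Of the 10 tested genes before it and the 10 after it in RefSeq gene order (GRCh38.p14), from SUN1 to BRAT1, 13 rose, 0 fell and 7 did not pass. Their median log2 fold change was 1.08, and 19 of 20 had a positive one. MAFK ranked at place 9 of these 21 genes, 0.10 above the median of its neighbours. Over 12133 tested genes with 10 neighbours on each side, the neighbours' median had a 5th percentile of -0.42 and a 95th percentile of 0.38. The median log2 fold change of the neighbours was 1.19 and 1.04 without parental replicate 1 or 2. It was 1.25 and 0.87 without resistant replicate 1 or 2. With limma-trend on TPM without a filter 3 neighbours were called higher, as were 41 of all 16067 genes tested there. DNA copy number was not analysed here, and the part of this stretch of chromosome 7 in the rise of MAFK was not tested.

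**Figure D2:**
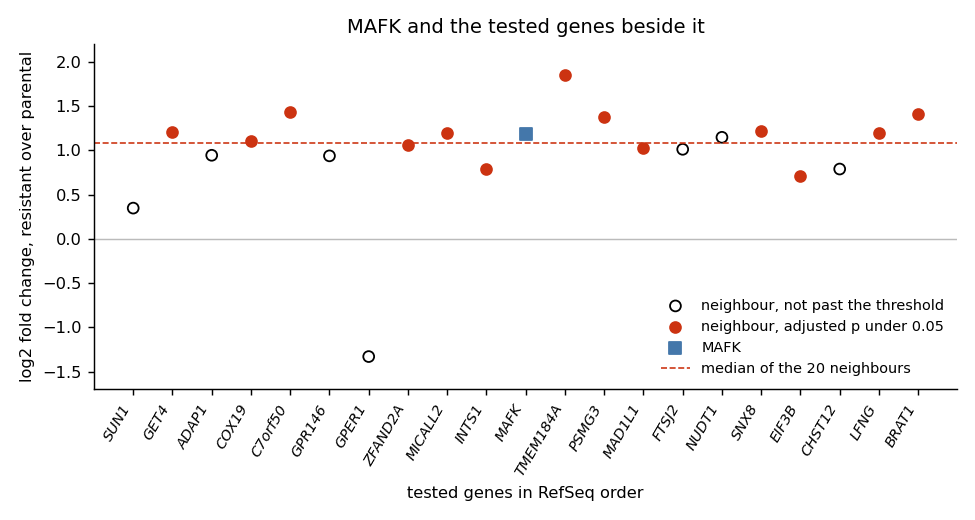
Log2 fold change (resistant over parental) of MAFK (square) and of the 10 tested genes on each side of it in RefSeq order, filled where edgeR's adjusted p was under 0.05. MAFK, at 1.18, lies close to the dashed median of its neighbours, 1.08, and GPER1, at -1.33, is the one neighbour below 0.

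The neighbour TMEM184A, which encodes a transmembrane protein, overlaps MAFK in the RefSeq table. TMEM184A rose from 17.8 and 16.4 CPM in the parental libraries to 53.2 and 69.9 in the resistant ones (log2 fold change 1.85 ± 0.20, edgeR's adjusted p = 0.0103). Whether the counting used strand is not given in the sources used here, so reads of the overlap could have been given to either gene. The same holds for MAFF with TMEM184B (log2 fold change -0.52), JUNB with HOOK2 (0.30) and FOSL2 with FOSL2-AS1, which was not analysed here. The part of this overlap in the value of MAFK was not tested.

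By the smallest distance between centred log2 CPM profiles over the 4 libraries, the genes most like MAFK among 10965 searched included ZNRF1, a ubiquitin ligase, and GET4, part of the machinery that inserts tail-anchored proteins. Their distances were 0.05 and 0.07 on the log2 scale. GET4 lies 9 tested genes before MAFK, whereas ZNRF1 is on chromosome 16. With 4 libraries such likeness is a description only.

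MAFF, the other small MAF gene of the set, did not pass the test. It stood at 31.6 and 31.2 TPM in the parental libraries and at 32.1 and 21.3 in the resistant ones, so the resistant libraries fell on both sides of the parental values in TPM. Its log2 fold change was -0.22 ± 0.16, with edgeR's adjusted p at 0.409, and -0.35 without resistant replicate 1. It passed in 0 of the 11 alternatives that kept all 4 libraries. The ratio of MAFK to MAFF within a library, which no scaling between libraries can move, was 0.963 and 0.853 in the parental libraries, against 2.05 and 2.68 in the resistant ones. MAFK was thus the less abundant of the pair in both parental libraries and the more abundant in both resistant ones. MAFG, the remaining small MAF gene, stood at 47.6 and 44.2 TPM in the parental line and at 65.2 and 34.0 in the resistant line. BATF3 stood at 5.49 and 4.59 TPM against 4.40 and 4.68, on 26 to 38 counts a library (log2 fold change -0.09 ± 0.34, edgeR's adjusted p = 0.88).

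Among the FOS genes, FOSL1 and FOSL2 made up nearly all of the mRNA, and their balance differed between the lines. FOSL1, which encodes FRA1, stood at 109.5 and 95.8 TPM in the parental libraries and at 157 and 136 in the resistant ones. FOSL2, which encodes FRA2, stood at 90.6 and 92.4 TPM in the parental libraries and at 69.6 and 36.9 in the resistant ones. Neither gene's groups overlapped, FOSL1 being on the higher and FOSL2 on the lower side in the resistant line. In normalised read count 30.9% of all tested genes were apart on the higher side and 29.7% on the lower. FOSL1 took 54.3% and 49.8% of the summed TPM of the 4 FOS genes in the parental libraries, against 68.8% and 77.8% in the resistant ones. FOSL2 took 45.0% and 48.1% against 30.4% and 21.1%. The ratio of FOSL1 to FOSL2 was 1.21 and 1.04 in the parental libraries, against 2.26 and 3.69 in the resistant ones, a difference of 1.37 on the log2 scale with a pooled SD of 0.37 (n = 2 in each group). An exact permutation test of 2 against 2 cannot go below a two-sided p of 0.333, so no test was run on the ratios.

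Taken alone, neither gene passed the threshold over all genes. FOSL1 had a log2 fold change of 0.58 ± 0.14 (SE) and an adjusted p of 0.0704 in edgeR. It passed with library totals in place of TMM (0.0447). With resistant replicate 1 or 2 left out its log2 fold change was 0.63 and 0.53. FOSL2 had a log2 fold change of -0.93 ± 0.23 and an adjusted p of 0.0721. With resistant replicate 1 left out it stood at -1.29, and at -0.65 with resistant replicate 2 left out. In those fits the spread comes from the parental pair alone, so no call is read from them. FOSL2 passed with DESeq2 (adjusted p = 0.00208), a replicate block (0.00146) and correction for effective length (0.00866). Those settings called 715, 1020 and 1240 of all genes lower, against 436 in the main fit. The replicate numbers used for the block are not shown to pair the samples. Without either parental library neither gene passed, and there the spread comes from the resistant pair alone. Without parental replicate 1 or 2 the log2 fold change was 0.65 and 0.50 for FOSL1, and -0.94 and -0.94 for FOSL2. Over the 11 alternatives that kept all 4 libraries the adjusted p ran from 0.0447 to 0.156 for FOSL1 and from 0.00146 to 0.263 for FOSL2. The 20 tested neighbours of FOSL2 had a median log2 fold change of -0.44, with 4 called lower and 0 higher. Over all tested genes with 10 neighbours on each side the 5th percentile of this median was -0.42, and 3.41% of all tested genes were called lower. Those of FOSL1 had a median of 0.23, with 0 called. The part of these neighbourhoods in the values of FOSL1 and FOSL2 was not tested.

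FOS, the founding member, and FOSB took at most 1.37% and 0.713% of the FOS genes' summed TPM in any library. FOS stood at 0.86 and 2.63 TPM in the parental libraries and at 1.36 and 1.22 in the resistant ones, on 13, 24, 21 and 23 counts. FOSB stood at 0.53 and 1.37 TPM against 0.45 and 0.78, on 15, 27, 18 and 15 counts. The groups overlapped for both genes in TPM, and neither passed (log2 fold changes -0.20 ± 0.45 and -0.80 ± 0.44, edgeR's adjusted p = 0.804 and 0.296). For FOS the parental pair differed by 0.80 on the log2 scale, more than the lines did.

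**Figure D3:**
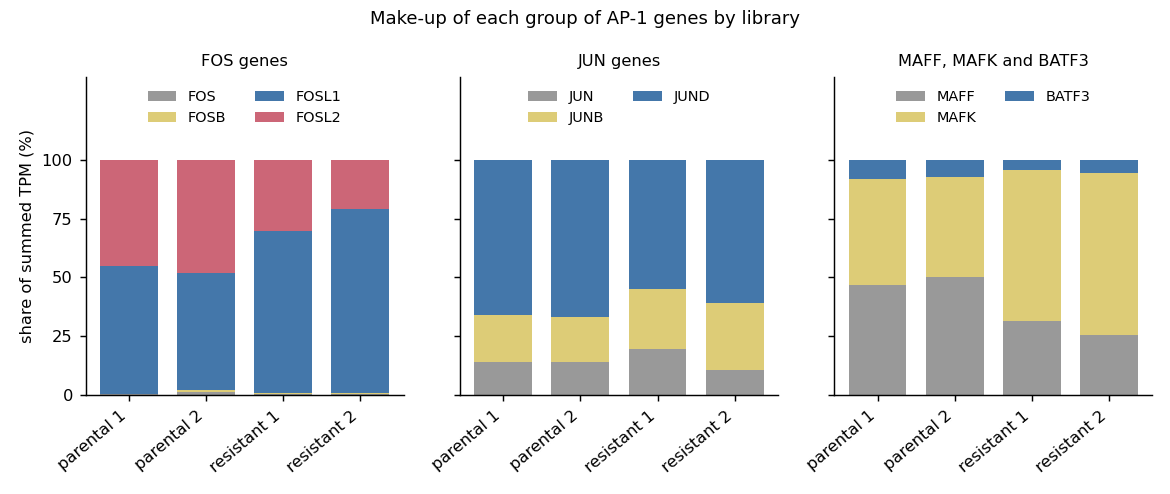
Share of the summed TPM (%) taken by each gene within the FOS genes, the JUN genes, and MAFF, MAFK and BATF3, with 1 bar for each RNA library. FOSL1 goes from 54.3% and 49.8% of the FOS genes in the parental libraries to 68.8% and 77.8% in the resistant ones, and MAFK from 45.1% and 42.7% of its group to 64.4% and 68.7%.

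For the JUN genes the 2 resistant libraries differed from each other by 0.27 (JUN), 0.72 (JUNB) and 0.60 (JUND) on the log2 scale, each more than the lines differed. JUN, the partner most often studied with FOS, stood at 71.6 and 70.0 TPM in the parental libraries and at 78.8 and 53.5 in the resistant ones. The resistant libraries fell on both sides of the parental pair (log2 fold change -0.06 ± 0.15, edgeR's adjusted p = 0.817). JUNB, often an antagonist of JUN, stood at 99.3 and 92.5 TPM in the parental libraries and at 103 and 139 in the resistant ones. Its log2 fold change was 0.42 ± 0.25, with an adjusted p of 0.328 in edgeR. The difference rested on resistant replicate 2. Without it the log2 fold change was 0.01, and without resistant replicate 1 it was 0.74.

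JUND showed the opposite split. Its level was 331 and 328 TPM in the parental libraries, 221 in resistant replicate 1 and 299 in resistant replicate 2. For JUND, as for 29.7% of all tested genes in normalised read count, both resistant libraries were thus below the parental pair. The log2 fold change was -0.38 ± 0.22 and the adjusted p 0.312 in edgeR. With resistant replicate 2 left out it was -0.72 and with resistant replicate 1 left out -0.11. JUND passed after correction for effective length (-0.62, edgeR's adjusted p = 0.0162), where 1240 of all genes were called lower, against 436 in the main fit. JUN passed in 0 of the 11 alternatives that kept all 4 libraries, and its log2 fold change was -0.20 without resistant replicate 1.

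Although the levels of JUNB and JUND differed between the resistant libraries, their ratio in TPM was nearly the same in both. With counts over a fixed effective length, chosen after seeing the data, it was 0.467 and 0.509 there, against 0.286 and 0.280 in the parental libraries. In TPM, JUNB over JUND was 0.299 and 0.282 in the parental libraries, against 0.465 and 0.464 in the resistant ones. The log2 difference was 0.68 with a pooled SD of 0.04 (n = 2 in each group). JUNB took 19.8% and 18.9% of the JUN genes' TPM in the parental line, against 25.6% and 28.3% in the resistant line, and JUND took 66.0% and 66.8% against 54.9% and 60.9%. JUN over JUND was 0.216 and 0.214 in the parental libraries, against 0.356 and 0.178 in the resistant ones, which lie on both sides. JUNB and JUND are both on chromosome 19, where their 20 tested neighbours had median log2 fold changes of 0.35 (1 called higher and 1 lower) and 0.25 (0 called).

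**Figure D4:**
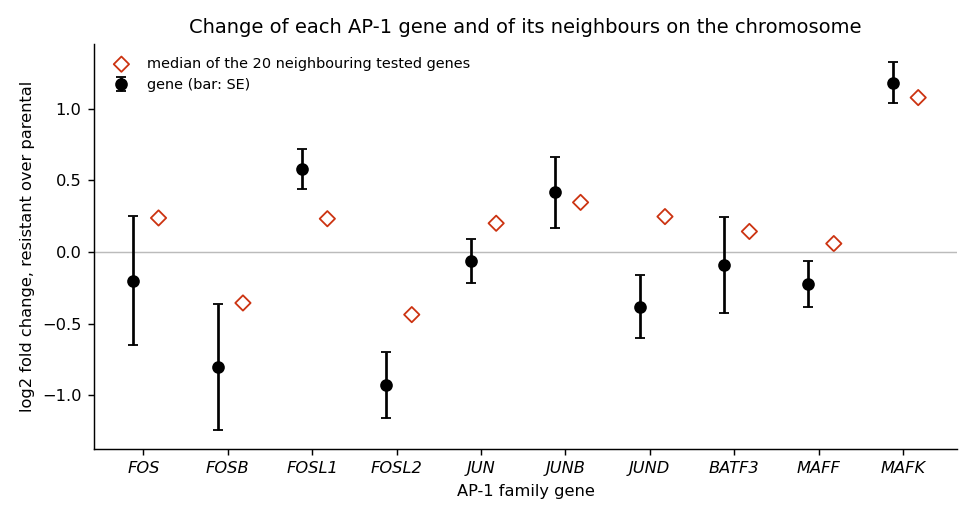
Log2 fold change (resistant over parental) with its SE for each AP-1 gene (filled points), and the median log2 fold change of the 20 tested genes around it on its chromosome (open diamonds). MAFK (1.18) and its neighbours (1.08) are both high, whereas JUND (-0.38) lies below 0 and its neighbours (0.25) above.

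**Figure D5:**
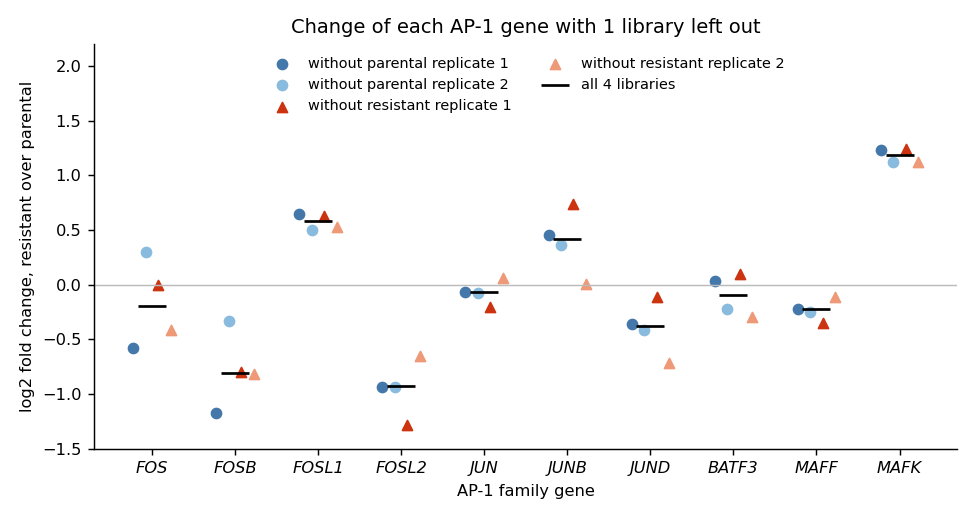
Log2 fold change of each AP-1 gene with all 4 libraries (bars) and with each library left out in turn (points). FOSB, FOSL1, FOSL2, JUNB, JUND, MAFF and MAFK keep their side of 0, while FOS, JUN and BATF3 cross it. With a library left out MAFK runs from 1.12 to 1.24, FOSL2 from -1.29 to -0.65 and JUNB from 0.01 to 0.74.

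The other genes of the AP-1 pathway were described by 6 lists with 85 genes in the tables, of which 72 were tested, 1 rose, 6 fell and 65 did not pass. Of all tested genes 2.96% were called higher, 3.41% were called lower and 27% had an unadjusted p under 0.05. The bZIP partners outside the 10 members had 0 of 11 tested genes called by edgeR (3 at an unadjusted p under 0.05), with a median log2 fold change of -0.07. The most abundant was NFE2L1, a relative of NRF2, at 217 and 183 TPM in the parental libraries, against 168 and 88.7 in the resistant ones (log2 fold change -0.54, adjusted p = 0.162). Of 15 upstream kinases 0 were called (5 at an unadjusted p under 0.05, median 0.07). The most abundant of them were MAP2K2 (MEK2) and MAPK3 (ERK1), with log2 fold changes of 0.30 and 0.34. Of 10 factors that act on the FOS and JUN promoters 0 were called (4 at an unadjusted p under 0.05, median -0.18), MEF2D and ELK4 standing at -0.51 and -0.55. Of 5 genes of JUN and FOS turnover 0 were called (1 at an unadjusted p under 0.05, median 0.02), COPS5 standing at 0.41 and the ubiquitin ligase gene RFWD2 at 0.05. DESeq2, which tested 16, 15, 10 and 5 genes of these 4 lists, called 1 kinase higher and 1 promoter factor lower. Of all 16057 genes it called 576 higher and 715 lower.

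Of 12 tested immediate early genes outside the family, 1 fell, 0 rose and 11 did not pass (3 at an unadjusted p under 0.05, median log2 fold change -0.17). That is 8.33% called lower, against 3.41% of all tested genes. DESeq2 tested 15 of the list and called 0 higher and 2 lower, against 576 and 715 of all 16057 genes. The one that fell in edgeR was DUSP1, a phosphatase that inactivates MAP kinases. It stood at 74.7 and 72.9 TPM in the parental libraries and at 35.5 and 22.8 in the resistant ones (log2 fold change -1.31 ± 0.17, edgeR's adjusted p = 0.0167). It passed in 10 of the 11 alternatives that kept all 4 libraries.

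Of 19 tested textbook AP-1 target genes, 1 rose, 5 fell and 13 did not pass in edgeR, and 12 had an unadjusted p under 0.05. DESeq2 tested 21 of the list and called 2 higher and 6 lower, against 576 and 715 of all 16057 genes. The number called lower was 8 in edgeR after correction for effective length, where 1240 of all 12792 tested genes were called lower. It was 2, 2 and 1 in the 3 forms of limma-trend on TPM, where 282, 243 and 98 of all genes were. The number called higher was 0 in each form of limma-trend on TPM, and 0 when only genes of mean log2 CPM 2 or more were tested. The median log2 fold change of the 19 targets was -0.45. The calls by edgeR were 5.26% higher and 26.3% lower, against 2.96% and 3.41% of all tested genes. The list was written with earlier results of these data known. PTGS2, the inducible cyclooxygenase, fell from 8.33 and 7.09 TPM in the parental libraries to 1.41 and 0.44 in the resistant ones (log2 fold change -3.04 ± 0.41, edgeR's adjusted p = 0.017), and its log2 fold change was -3.91 without resistant replicate 1. PLAUR, the urokinase receptor, fell from 63.0 and 59.2 TPM to 18.5 and 21.5 (-1.53 ± 0.21, adjusted p = 0.017). It passed in all 11 alternatives that kept all 4 libraries. The osteopontin gene SPP1 rose from 780 and 769 TPM to 1376 and 1065 (0.70 ± 0.14, adjusted p = 0.0443). Those that fell also included, named after their values were seen, the EGFR ligands EREG and HBEGF (log2 fold changes -1.11 and -0.95, adjusted p = 0.0257 and 0.0439). Without parental replicate 1 or 2 the calls of SPP1 (adjusted p = 0.631 and 0.66), EREG (0.0787 and 0.116) and HBEGF (0.333 and 0.246) ended. Most of the textbook targets also answer to other factors, and no binding of AP-1 to them was measured.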

How the data were processed

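RNA was measured in 2 libraries of each line, and samples were grouped by their titles. The authors' deposited tables give estimated counts and TPM per gene symbol. Tools named in the submitters' processing notes were STAR, RSEM and DESeq2 1.40.2. The notes also list GRCh38 and hg19 with no role for either, and whether counting used strand is not given in the sources used here. Library totals were 10605113, 10584083, 14664723 and 12851393 estimated counts. Of the estimated counts 3.16% were fractional, and all were rounded. The 28 date-like symbols stayed in the fit. Genes were kept by filterByExpr (12792), scaled by TMM and tested with edgeR 4.0.16's quasi-likelihood F test (R 4.3.3), with a single term for line, and p-values were adjusted by Benjamini-Hochberg (threshold 0.05). The SE is the log2 fold change over the root of F. Checks on simulated data used a fixed seed. There the edgeR test recovered 43% of 2-fold and 94% of 4-fold changes. A gene that was not called may thus still have changed.

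The members and the 6 lists were chosen with earlier results of these data known. The rule for named genes took the 10 members, up to 3 rises and 3 falls of each list or its 2 most abundant genes, and the 3 genes nearest to the called member in centred log2 CPM, at a mean log2 CPM of 2 or more. Of the genes it took, 2 are not reported here. Alternatives were DESeq2 1.42.0, limma 3.58.1 (voom, and trend on log2(TPM + 1) and log2(TPM + 0.1) where 2 libraries reached a TPM of 1), other scalings and filters, a replicate block, a lowess correction (span 0.3) for effective length, and leaving out each library. Gene order is from RefSeq (GRCh38.p14), to which 12593 tested genes matched and 199 did not. The H3K27ac peak lists extend past the end of chromosome 1 in GRCh38, and no coordinates were converted, so they were not used.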

Additional observations from a re-analysis of the deposited data

How the results depend on the processing

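Over all genes, 379 were called higher and 436 lower. These counts were 860 and 1020 with a replicate block, 986 and 1240 after correction for effective length, 576 and 715 with DESeq2, 243 and 282 with limma-trend at a TPM pseudocount of 1, 217 and 243 at one of 0.1, and 41 and 98 on log2(TPM + 1) with no filter. With 1 library left out they ran from 141 to 3374 and from 264 to 3479, where the remaining library of a group is taken to vary as the other group does. With library totals the split was 531 higher and 373 lower, and the median of all genes moved from 0.02 to 0.10.

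Of the 10 members, 1 was called higher and 0 lower. The count called higher was 2 with library totals and 0 with limma-trend on log2(TPM + 1) with no filter. The count called lower was 1 with a replicate block, 2 after correction for effective length and 1 with DESeq2. With 1 library left out the counts ran from 0 to 3 and from 0 to 3. Some log2 fold changes turned their sign. JUN was at 0.022 with library totals. With 1 library left out, FOS ran from -0.58 (without parental replicate 1) to 0.30 (parental 2), JUN from -0.20 (resistant 1) to 0.059 (resistant 2), BATF3 from -0.30 (resistant 2) to 0.10 (resistant 1) with 0.04 without parental 1, and MAFG from -0.18 (resistant 1) to 0.41 (resistant 2).

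Of the pathway genes, 1 was called higher and 6 lower. The count called higher was 2 with library totals, 4 with a replicate block, 4 after correction for effective length, 3 with DESeq2, and 0 when only genes of mean log2 CPM 2 or more were tested and with limma-trend on TPM in its 3 forms. The count called lower was 10 with a replicate block, 14 after correction for effective length, 3 and 3 with limma-trend at pseudocounts of 1 and 0.1, and 1 with no filter. With 1 library left out the counts ran from 0 to 13 and from 5 to 30. With counts over a fixed effective length, chosen after seeing the data, the log2 ratio of JUNB to JUND differed by 0.79 in place of 0.68. The cause of these shifts was not tested.

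Replicate numbers are shared between the lines, but deviations of same-numbered libraries had a correlation of -0.05 over genes, so the numbers are not shown to pair the samples. Peaks near the members were not run. FOS, FOSB and BATF3 rest on 13 to 38 counts a library, which limits the precision of their values.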
